A study of Mus musculus with 6 samples.

Results

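Integrins are the cell surface receptors by which macrophages hold on to matrix and to other cells, and the genes described here are 38 listed members of that machinery: 18 alpha chains, 8 beta chains, 6 ligands or partner adhesion receptors and 6 cytoskeletal linkers. They were taken by symbol from a fixed list, which was chosen with earlier results of these data known. All 38 were found among the 46983 genes of the count table. The cells were bone marrow derived macrophages, that is, mouse marrow precursors matured into macrophages in a dish, and their RNA was sequenced. Marrow came from the femurs of C57BL/6 mice, either wild-type (WT, 3 libraries) or knockout for astrocyte elevated gene-1 (AEG-1 KO, 3 libraries), and was kept for 7 days in 10% heat-inactivated serum and, as a source of the growth factor CSF-1, 20% L929 conditioned medium, with no further treatment. The part of the gene that was deleted, the cells in which it is deleted, and the age and sex of the mice were not stated in the labels. Nor was it stated that replicates were separate animals or cultures, and p-values here measure only the spread between libraries, which may be technical.

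Each integrin is a dimer of 1 alpha and 1 beta chain. The leukocyte integrins share the beta chain Itgb2 and bind ICAM ligands, complement fragments and fibrinogen, while dimers of Itgav bind matrix proteins that carry an arginine-glycine-aspartate motif, among them vitronectin, fibronectin and osteopontin. Talin and kindlin bind the tails of the beta chains inside the cell and switch the receptor to its active form, and vinculin and paxillin join that complex to actin in focal adhesions and in podosomes, the adhesive feet of macrophages.

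Library totals ran from 42548170 to 58947230 counts, and levels are given as CPM, read counts relative to the library total, scaled between libraries by TMM factors. Mtdh, the gene of AEG-1, had 11560 to 14849 reads in the WT libraries and 15 to 22 in the AEG-1 KO libraries, so every library carried the Mtdh level of its label. All 12 macrophage markers in a list used as a check of cell type were detected, 4 called higher and 1 lower, with summed levels of 18633.5 to 19131.5 CPM in WT and 19389.9 to 19927.5 CPM in AEG-1 KO. Lyz2 was the most abundant, at 9743 ± 309 CPM in WT (SD, n = 3), and the 1 called lower was Adgre1, whose mean was 4605 ± 34 CPM in WT and 4040.4 ± 125 CPM in the knockouts. Markers of some other cells moved with the genotype. Of 9 monocyte markers 6 were called higher and none lower. Their summed levels were 147 to 164 CPM in WT and 199 to 214 CPM in AEG-1 KO. Of 12 neutrophil markers 5 were called higher and 1 lower, with sums of 164 to 186 and 207 to 248 CPM. The sums of 12 stromal and endothelial markers were 8.01 to 9.16 CPM in WT and 12.3 to 14.2 CPM in AEG-1 KO, with 3 called higher. No marker was called among those tested of dendritic cells (5), T and NK cells (2) or mast cells and basophils (1). Of 6 tested B and plasma cell markers 1 was called higher. The share called over all genes tested was 6.35%. In bulk RNA, a change in the number of cells of a type and a change in RNA per cell cannot be told apart. The part of monocytes, neutrophils and stromal or endothelial cells in the results below was not tested.

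The adhesion genes did not move as a block. Vcam1, the ligand of the integrin of Itga4 and Itgb1, rose 1.64-fold in AEG-1 KO, and the matrix receptor chains Itgav and Itgb5 rose 1.25-fold and 1.23-fold. The hyaluronan receptor Cd44 and the laminin receptor chain Itga6 rose 1.20-fold and 1.15-fold. Itgal, the alpha chain of the leukocyte integrin LFA-1, fell to 0.792 of its WT level, Pecam1 to 0.803 and vinculin, Vcl, to 0.824. Of the 38 genes 33 passed the filter on low counts and were tested, 5 rose, 3 fell and 25 did not pass (quasi-likelihood test of edgeR, with Benjamini-Hochberg adjustment over all 16115 genes tested and a threshold of 0.05). That is 24.2% of the tested members, beside 6.35% of all genes tested, 3.31% called higher and 3.04% called lower. As the list was chosen with earlier results of these data known, the shares of members in this paragraph describe it and do not test it. The 8 called members all lay among the 19 with a mean of at least 20 CPM, where 9.32% of all genes at that level were called. The 3 libraries of one genotype all lay above the 3 of the other in 16 of the 33 tested members and in 26.8% of all genes tested. The median log2 fold change of the 33 was 0.06, and that of all genes tested was 0.01.

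**Figure D1:**
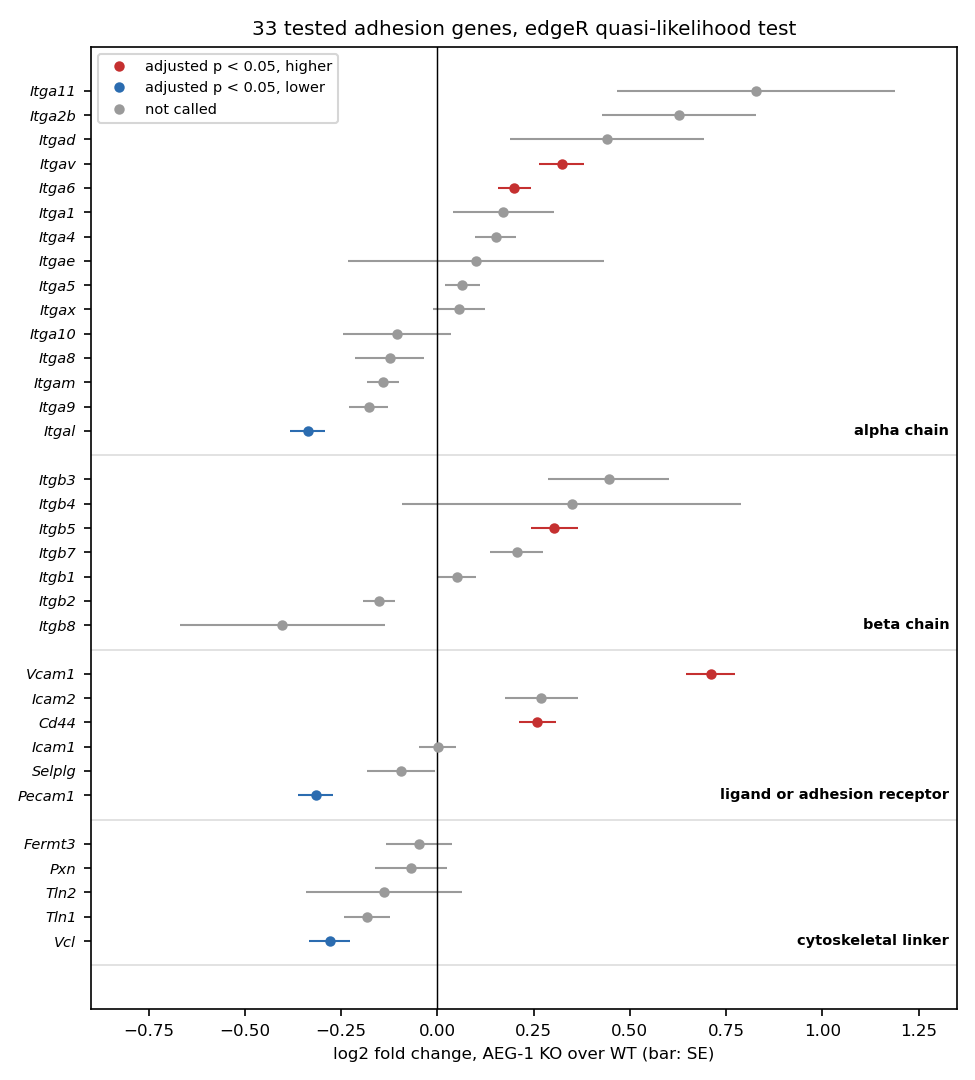
Log2 ratio of AEG-1 KO to WT (horizontal axis) of the 33 tested adhesion genes, grouped by role, with bars of 1 SE; red and blue mark genes called higher and lower by edgeR at an adjusted p under 0.05, and grey marks no call. The called genes lie between -0.34 (Itgal) and 0.71 (Vcam1). All 5 tested linkers have values below 0, but only Vcl of them is called. Without WT replicate 1, Fermt3 and Pxn have values above 0 (0.016 and 0.0026).

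The promoters of 4 called members show the sequence context of genes that rose (Itgav, Itgb5 and Cd44) and of a linker that fell (Vcl). Each runs from 250 bases before to 50 bases after the RefSeq start, on build GRCm38.p6, 5′ to 3′ on the strand of the gene: chr2:83724147-83724446 (plus) for Itgav, chr16:33829415-33829714 (plus) for Itgb5, chr2:102901616-102901915 (minus) for Cd44 and chr14:20929148-20929447 (plus) for Vcl. Capitals mark matches, on either strand, to the GC box GGGCGG, the PU.1 core GAGGAA or the CArG box.
Itgav: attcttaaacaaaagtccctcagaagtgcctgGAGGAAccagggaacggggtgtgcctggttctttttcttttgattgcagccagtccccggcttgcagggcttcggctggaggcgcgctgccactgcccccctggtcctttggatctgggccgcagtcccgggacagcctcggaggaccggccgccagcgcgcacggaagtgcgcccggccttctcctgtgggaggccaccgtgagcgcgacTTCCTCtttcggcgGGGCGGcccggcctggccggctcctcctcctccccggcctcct
Itgb5: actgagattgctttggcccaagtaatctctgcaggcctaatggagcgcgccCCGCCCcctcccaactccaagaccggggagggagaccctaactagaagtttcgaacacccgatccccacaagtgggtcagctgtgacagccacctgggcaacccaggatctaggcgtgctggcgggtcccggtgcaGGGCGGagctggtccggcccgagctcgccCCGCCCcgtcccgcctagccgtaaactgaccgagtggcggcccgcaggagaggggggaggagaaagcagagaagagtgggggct
Cd44: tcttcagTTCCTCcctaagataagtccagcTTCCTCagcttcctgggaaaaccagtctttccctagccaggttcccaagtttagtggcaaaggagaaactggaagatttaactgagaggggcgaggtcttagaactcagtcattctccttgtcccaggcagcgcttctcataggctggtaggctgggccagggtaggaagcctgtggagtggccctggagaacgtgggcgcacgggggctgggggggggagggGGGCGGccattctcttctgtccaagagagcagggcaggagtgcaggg
Vcl: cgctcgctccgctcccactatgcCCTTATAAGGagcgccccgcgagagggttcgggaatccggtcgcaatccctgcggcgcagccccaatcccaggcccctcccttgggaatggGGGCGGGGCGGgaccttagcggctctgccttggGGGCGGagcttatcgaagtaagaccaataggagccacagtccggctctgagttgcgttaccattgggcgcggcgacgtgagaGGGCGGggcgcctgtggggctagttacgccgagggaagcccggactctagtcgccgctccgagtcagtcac
Of the 38 genes 24 had a RefSeq promoter here; Itgal, Vcam1, Pecam1 and Itga6 were not among them. The 3 promoters of Itgav, Itgb5 and Cd44 each held a GC box. It was found in promoters of 12 of the 24 members and in 35.7% of all 32851 promoters of this length. The median GC content was 58.7% over the promoters of members and 52.7% over all promoters. Itgav and Cd44 held 2 matches each to the PU.1 core, and Itgb5 held none. That core was found in promoters of 11 of the 24 members and in 28.3% of all promoters. PU.1 is a master transcription factor of the macrophage lineage. Vcl held 4 GC boxes, the first and second of them overlapping, and a CArG box, the sequence bound by serum response factor, starting 227 bases before the start. A CArG box was found in 1.63% of all promoters and in those of 2 of the 24 members. The TATA box TATAAA, the AP-1 site TGANTCA and the CRE TGACGTCA were searched too and were absent from these 4 windows; 13.6%, 7.81% and 1.79% of all promoters held them. A match describes letters in a window and is not evidence of binding.

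Among alpha chains of the leukocyte integrins, Itgal had the highest level as counted and was the one called lower. The count of Itgam may be too low, as described below. Itgal (ENSMUSG00000030830, GRCm38 chromosome 7, 127296260 to 127335138) was at 1471, 1444 and 1395 CPM in WT replicates 1 to 3 and at 1193, 1096 and 1123 CPM in AEG-1 KO replicates 1 to 3. Every AEG-1 KO library lay below every WT library, with a gap wider than the range within either group. The log2 fold change, here called the log2 difference, was -0.34 ± 0.04 (SE; adjusted p = 0.00269 in edgeR). The call held in all 14 alternative fits, with adjusted p from 5.49e-08 to 0.0431. No exon of another counted gene overlaps Itgal and no near-identical copy was found.

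None of its 3 relatives on the same stretch of chromosome 7 was called. Itgam, the CD11b chain of the complement receptor CR3, was at 292, 277 and 292 CPM in WT and at 266, 261 and 254 CPM in AEG-1 KO (adjusted p = 0.0792 in edgeR; log2 difference -0.14 ± 0.04 SE), so its groups did not overlap but it was not called. Of the exon bases of Itgam 68.7% also lie in exons of Gm49368 on the same strand, which had 4 or 5 reads per library, so reads could be lost to the overlap. Itgax, the CD11c chain, was at 11.3 to 12.5 CPM in WT and 12 to 12.8 CPM in AEG-1 KO, with overlapping groups (adjusted p = 0.694 in edgeR). Itgad was near the detection limit, at 15 to 32 reads per library (adjusted p = 0.355 in edgeR; log2 difference 0.44 ± 0.25 SE). The shared beta chain Itgb2 was at 1035, 1043 and 978 CPM in WT and at 925, 896 and 929.3 CPM in AEG-1 KO, again without overlap (adjusted p = 0.0623 in edgeR; log2 difference -0.15 ± 0.04 SE). Itgb2 was called lower without WT replicate 3 (adjusted p = 0.0287), by DESeq2 (0.0267), with no filter on low counts (0.0219), with a stricter filter (0.0477) and after removal of a length and GC trend over genes (0.00686). Gm14699 on the X chromosome, a gene with a near-identical stretch to Itgb2, had 2.96% as many reads and a log2 difference of -0.22 ± 0.07 SE (adjusted p = 0.11 in edgeR).

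The summed level of Itgal, Itgam, Itgax and Itgad was 1699 to 1776 CPM in WT and 1371 to 1472 CPM in AEG-1 KO. Levels per kilobase of exon allow chains to be set beside each other, and on that scale the 4 alpha chains together were 0.834 ± 0.0201 of Itgb2 in WT (SD, n = 3) and 0.758 ± 0.0235 in AEG-1 KO. The ratio of Itgal to Itgam per kilobase was 3.85, 3.98 and 3.66 in the WT libraries and 3.43, 3.21 and 3.39 in the AEG-1 KO libraries. These ratios were chosen after the values were seen, need no scaling between libraries and carry no test. Both rest on a count of Itgam that its overlap with Gm49368 may have lowered.

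Among chains of matrix receptors, Itgav, Itgb5 and Itga6 were called higher and none was called lower. Itgav (ENSMUSG00000027087, GRCm38 chromosome 2, 83724397 to 83806916), the alpha chain of the vitronectin receptors, was at 224, 219 and 246 CPM in WT and at 287, 303 and 271 CPM in AEG-1 KO. All 3 AEG-1 KO libraries lay above the WT libraries (adjusted p = 0.0119 in edgeR; log2 difference 0.32 ± 0.06 SE). Its call was lost in the fits that left out replicate 2 of either genotype (adjusted p = 0.0629 for WT and 0.0871 for AEG-1 KO). Itgb5 (ENSMUSG00000022817, GRCm38 chromosome 16, 33829665 to 33949338), a beta chain that pairs with Itgav, was at 178, 186 and 161 CPM in WT and at 206, 217 and 226 CPM in AEG-1 KO, again without overlap (adjusted p = 0.0194 in edgeR; log2 difference 0.30 ± 0.06 SE). Its call was lost when replicate 2 or 3 of AEG-1 KO was left out (0.079 and 0.0645). Gm38317 on chromosome 3 shares a near-identical stretch with Itgb5, so reads could be split between them; it had 12.8% as many reads and a log2 difference of 0.29 ± 0.07 SE (adjusted p = 0.0501 in edgeR).

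Of the other beta chains known to pair with Itgav, Itgb1 was abundant and is described with Itga4, while Itgb3, Itgb6 and Itgb8 were scarce. Itgb3, which forms the vitronectin receptor of osteoclasts and, with Itga2b, the platelet fibrinogen receptor, was at 1.34, 1.16 and 1.48 CPM in WT and at 1.60, 2 and 1.79 CPM in AEG-1 KO (adjusted p = 0.136 in edgeR). Itga2b was at 0.53 to 0.763 and 0.888 to 1.08 CPM (adjusted p = 0.102 in edgeR; log2 difference 0.63 ± 0.20 SE). Neither was called, although their groups did not overlap. Among 10 megakaryocyte and platelet markers 1 was called, Pf4, a chemokine also made by macrophages, which rose from 65.8 ± 5.45 to 96.7 ± 3.44 CPM (SD, n = 3; adjusted p = 0.00128 in edgeR). The list summed to 67.3 to 77.7 CPM in WT and 102 to 109 CPM in AEG-1 KO; apart from Pf4 every marker of it had a mean under 3 CPM in both genotypes, and Gp1bb had 1 read over all 6 libraries. Their part in the values of Itga2b and Itgb3 was not tested. Itgb8 had 14 to 29 reads per library, and Itgb6 had 1 read in all.

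Of the other chains of arginine-glycine-aspartate receptors, Itga5, the fibronectin receptor chain, was at 480, 453 and 454 CPM in WT and at 500, 490 and 461 CPM in AEG-1 KO, with overlapping groups (adjusted p = 0.463 in edgeR; log2 difference 0.06 ± 0.05 SE). Itga5 and Itgb7 lie on chromosome 15 with Mtdh, but 69.2 and 68.1 Mb away from it. Itga8 was at 4.31 to 5.13 CPM over all libraries and was not called (adjusted p = 0.477 in edgeR). Per kilobase, Itgb5 stood at 0.148, 0.153 and 0.141 of Itgb2 in the WT libraries and at 0.191, 0.208 and 0.209 in the AEG-1 KO libraries. Itgav stood at 0.093, 0.0926 and 0.108 of Itgal in WT and at 0.147, 0.169 and 0.148 in AEG-1 KO. These ratios within a library, also chosen after the values were seen, were higher in all 3 AEG-1 KO libraries than in any WT library. In each ratio the upper gene was higher and the lower gene was lower in AEG-1 KO, without overlap. The separation of the ratios largely restates those values and is no further support.

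**Figure D2:**
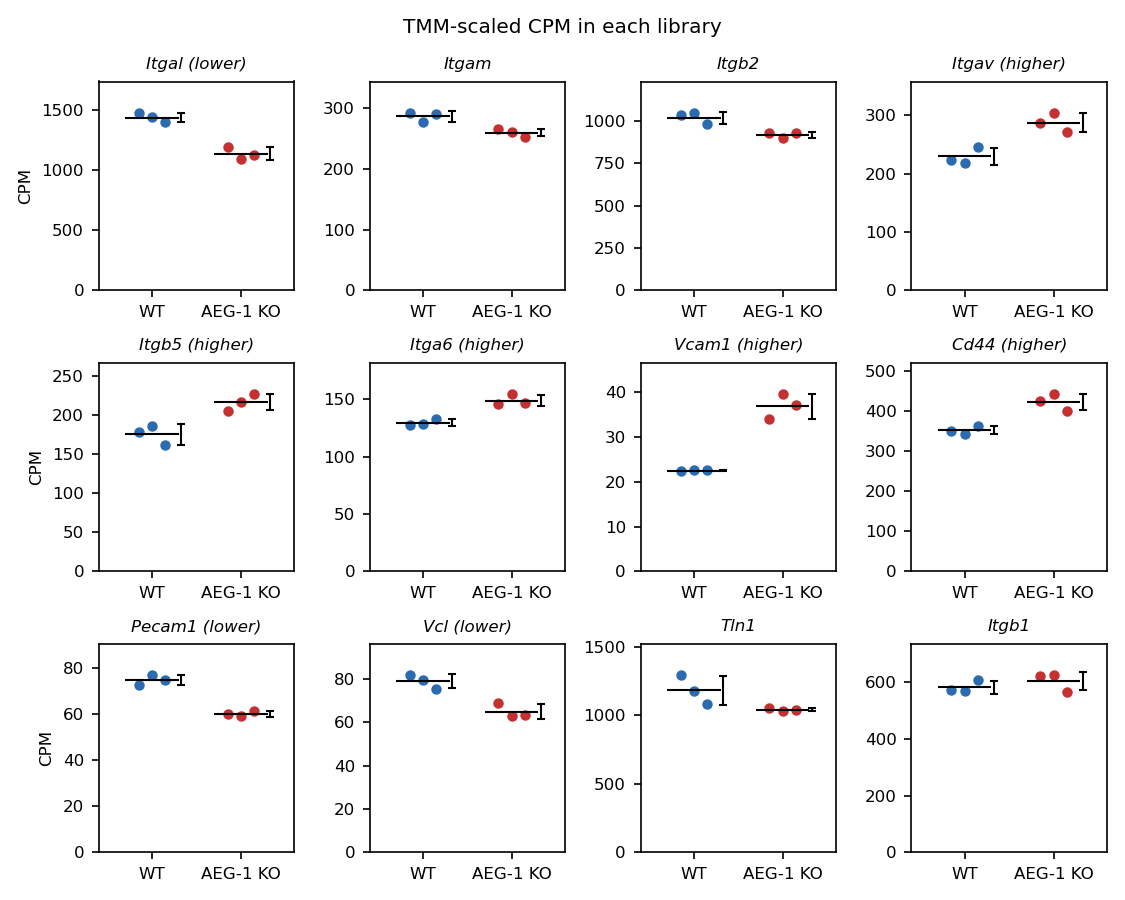
TMM-scaled CPM (vertical axis, from 0, different scale per panel) of 12 adhesion genes in each of the 3 WT (blue) and 3 AEG-1 KO (red) libraries, with the mean (line) and SD (bar); called genes are named as higher or lower. Itgal, Pecam1 and Vcl lie lower and Itgav, Itgb5, Itga6, Vcam1 and Cd44 higher in all AEG-1 KO libraries than in any WT library, while the groups of Itgb1 overlap.

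Itga6, the alpha chain of laminin receptors, made the smallest change of the called genes. It was at 128, 129 and 133 CPM in WT and at 146, 154 and 147 CPM in AEG-1 KO, without overlap (adjusted p = 0.0263 in edgeR; log2 difference 0.20 ± 0.04 SE). Its call was kept in only 1 of the 6 fits that left out a library, the fit without WT replicate 3, and was lost with no filter on low counts (adjusted p = 0.0531). Adjusted p was 0.0774 and 0.122 without WT replicates 1 and 2, and 0.0634, 0.172 and 0.0725 without AEG-1 KO replicates 1, 2 and 3. The other laminin receptor chains were hardly detected: Itga3 had 0 to 5 reads and Itga7 had 7 to 18 reads per library, and Itgb4 had 6 to 21. Of the collagen receptor chains, Itga1 was at 2.24 to 3.03 CPM and Itga10 at 1.61 to 1.95 CPM over all libraries, Itga11 had 8 to 23 reads per library and Itga2 had 0 to 3. None of the collagen receptor chains was called.

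Itga4, which pairs with Itgb1 or Itgb7 and binds Vcam1, was at 159, 157 and 169 CPM in WT and at 182, 188 and 168 CPM in AEG-1 KO; the groups overlapped by a small margin (adjusted p = 0.136 in edgeR; log2 difference 0.15 ± 0.05 SE). Itgb1, the beta chain of most matrix integrins, was at 570, 566 and 608 CPM in WT and at 619, 622 and 565 CPM in AEG-1 KO, with overlap (adjusted p = 0.627 in edgeR; log2 difference 0.05 ± 0.05 SE). Itgb7 was at 14.3 to 15.6 and 16.4 to 18.2 CPM and missed the threshold (adjusted p = 0.117 in edgeR). Itga9, another partner of Itgb1 and a receptor of tenascin and osteopontin, was at 72.8, 68.0 and 69.2 CPM in WT and at 64.8, 59.9 and 60.9 CPM in AEG-1 KO (adjusted p = 0.0707 in edgeR; log2 difference -0.18 ± 0.05 SE). Its groups did not overlap and it was not called. Itgae, a chain of tissue-resident T cells and some dendritic cells, had 12 to 34 reads per library.

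Read per kilobase of exon, the alpha chains in WT ran in the order Itgal (219 ± 5.85), Itga5 (93.7 ± 3.06), Itgam (57.1 ± 1.69), Itgav (21.4 ± 1.35), Itga6 (14.4 ± 0.312), Itga4 (11.6 ± 0.462), Itga9 (9.11 ± 0.326) and Itgax (2.49 ± 0.119), all as CPM per kilobase (SD, n = 3). The neighbours in this order were separated by more than their spread between libraries. The level of Itgam may be too low, since 68.7% of its exon bases also lie in exons of Gm49368. Its place in the order and the alpha chain shares given below are uncertain to that extent. The other alpha chains were under 1 CPM per kilobase. The order of these 8 was the same in AEG-1 KO, with Itgal at 173 ± 7.63 and Itgav at 26.7 ± 1.48 CPM per kilobase. Itgal held 50.9 ± 0.851% of the summed alpha chain level in WT and 44.3 ± 1.18% in AEG-1 KO, and Itgav 4.97 ± 0.359% and 6.83 ± 0.363%. Among beta chains the order was Itgb2 (334 ± 11.6), Itgb1 (142 ± 5.63), Itgb5 (49.3 ± 3.64) and Itgb7 (5.47 ± 0.267 CPM per kilobase) in WT. Itgb2 held 62.8 ± 1.05% of the summed beta chain level in WT and 58.3 ± 1.10% in AEG-1 KO, and Itgb5 held 9.27 ± 0.519% and 11.8 ± 0.626%. The shares sum to the whole within a library, so a fall in the largest chain raises the shares of the rest.

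**Figure D3:**
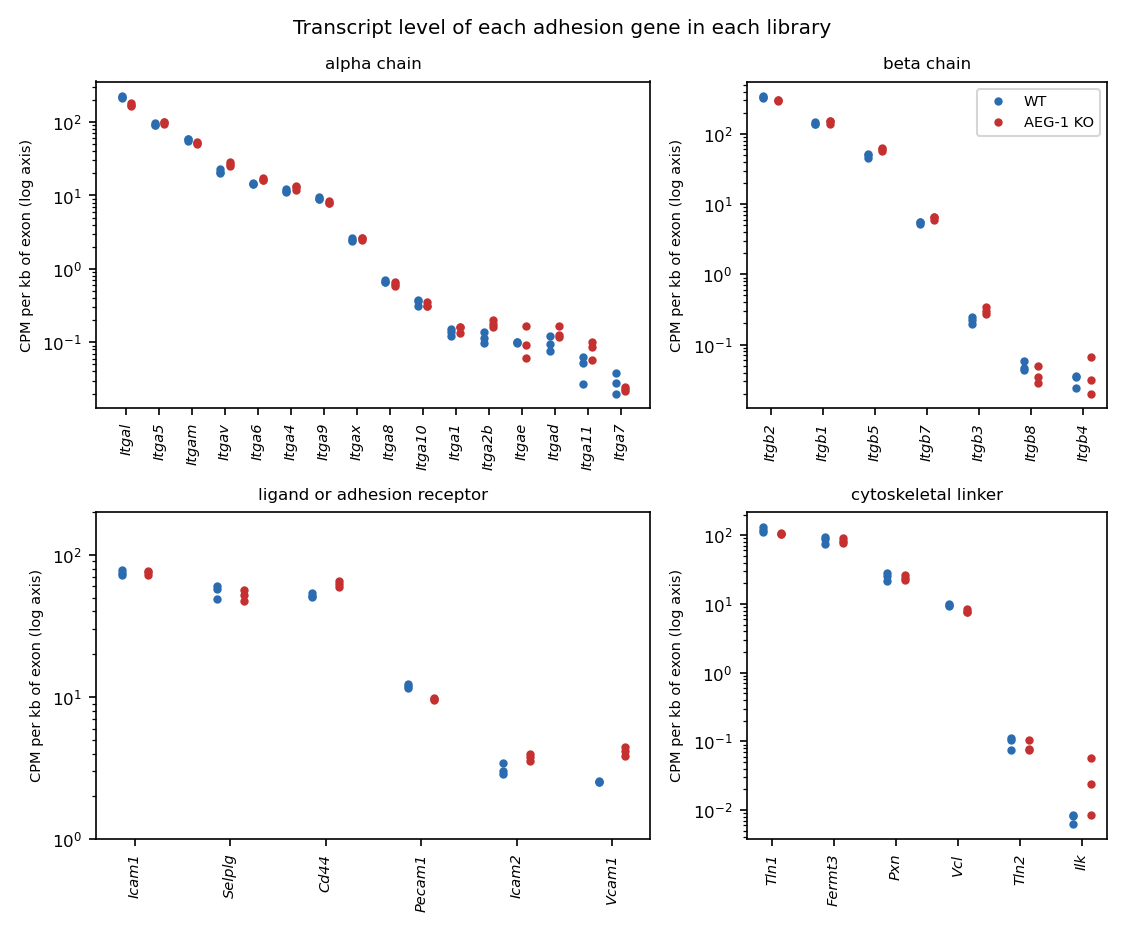
CPM per kilobase of exon (vertical axis, log scale) of each adhesion gene with reads in every library, by role, with a point for each WT (blue) and AEG-1 KO (red) library. Itgal and Itgb2 are the highest alpha and beta chains in both genotypes, at 219 and 334 CPM per kilobase on average in WT.

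Of the ligands and partner receptors, Vcam1 made the largest change. Vcam1 (ENSMUSG00000027962, GRCm38 chromosome 3, 116109949 to 116129688), an immunoglobulin-family adhesion molecule of activated endothelium, stroma and some macrophages, was at 22.4, 22.6 and 22.5 CPM in WT and at 33.9, 39.5 and 37.1 CPM in AEG-1 KO. The WT libraries were nearly equal and all AEG-1 KO libraries lay well above them (adjusted p = 0.000374 in edgeR; log2 difference 0.71 ± 0.06 SE). The call held in all 14 alternative fits, with adjusted p from 3.01e-16 to 0.0113. The stromal and endothelial markers named above summed to less than Vcam1 alone in every library, and of these Dcn, Col1a2 and Col3a1 were called higher; their part in the rise was not tested. Near-identical stretches are shared with Vcam1 by 5 other genes, so reads could be split between them, and none of the 5 was called. Dnase2a had 395% and Ankrd40 351% as many reads as Vcam1, with log2 differences of 0.10 and -0.07 (adjusted p = 0.305 and 0.36 in edgeR). Tti2, Zfp111 and Rmi2 had 39.9%, 40.5% and 2.48% as many reads. Its opposite-strand neighbour Gm43109 had 0 to 2 reads.

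Pecam1, an adhesion molecule of endothelium, platelets and leukocytes, was at 72.6, 76.8 and 74.9 CPM in WT and at 59.9, 59.1 and 61.3 CPM in AEG-1 KO. The groups were far apart relative to their spread (adjusted p = 0.00364 in edgeR; log2 difference -0.32 ± 0.04 SE). The endothelial markers Cdh5, Kdr, Tek and Emcn were each at 2.1 CPM or less on average in either genotype, and none was called. Tek and Emcn were too low to test. Cdh5 was at 1.46 ± 0.167 CPM in WT (SD) and 2.10 ± 0.144 CPM in AEG-1 KO (adjusted p = 0.0646 in edgeR). Kdr was at 1.36 ± 0.265 and 1.48 ± 0.0658 CPM (adjusted p = 0.812 in edgeR). The part of endothelial cells in the value of Pecam1 was not tested. Pecam1 lost its call only under the replicate block (adjusted p = 0.068) among the 14 alternative fits. Icam2, which lies near Pecam1 on chromosome 11 and binds LFA-1, was at 5.46 to 6.53 CPM in WT and 6.76 to 7.57 CPM in AEG-1 KO without a call (adjusted p = 0.136 in edgeR; log2 difference 0.27 ± 0.09 SE).

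Cd44 was at 350, 344 and 364 CPM in WT and at 424, 441 and 400 CPM in AEG-1 KO, with every AEG-1 KO library above every WT library (adjusted p = 0.0121 in edgeR; log2 difference 0.26 ± 0.05 SE). Its call was lost when replicate 2 of WT (0.0671) or of AEG-1 KO (0.0961) was left out. Icam1, a ligand of LFA-1 and CR3 and a target of inflammatory signals, was at 344, 324 and 315 CPM in WT and at 337, 332 and 313 CPM in AEG-1 KO. The groups overlapped (adjusted p = 0.995 in edgeR; log2 difference 0.00 ± 0.05 SE), and its sign changed between fits. Selplg, the P-selectin ligand PSGL-1, was at 258, 248 and 208 CPM in WT and at 203, 222 and 243 CPM in AEG-1 KO. Its spread within each genotype was wider than the difference between them (adjusted p = 0.597 in edgeR; log2 difference -0.09 ± 0.09 SE).

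Of the 5 linkers tested, 1 was called, Vcl, which fell. Vcl, which encodes vinculin (ENSMUSG00000021823, GRCm38 chromosome 14, 20929398 to 21033676), was at 81.6, 79.6 and 75.4 CPM in WT and at 68.8, 62.9 and 63.3 CPM in AEG-1 KO, without overlap (adjusted p = 0.0163 in edgeR; log2 difference -0.28 ± 0.05 SE). Its call was lost when replicate 2 of WT (0.0761), or replicate 2 (0.0839) or 3 (0.056) of AEG-1 KO, was left out. Of its exon bases 25.5% lie in exons of Ap3m1 on the other strand, which was not called (adjusted p = 0.455 in edgeR; log2 difference -0.07 ± 0.05 SE); whether counting used strand was not stated, and the value of Vcl is uncertain to that extent.

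Tln1, talin 1, the main activator of integrins, was at 1290, 1173 and 1080 CPM in WT and at 1055, 1029 and 1038 CPM in AEG-1 KO. All WT libraries lay above the AEG-1 KO libraries, WT replicate 3 only just, and the gene was not called (adjusted p = 0.116 in edgeR; log2 difference -0.18 ± 0.06 SE). It was called lower without WT replicate 3 (0.0155), by DESeq2 (0.0491), with no filter on low counts (0.0458) and with the length and GC trend removed (0.0129). Tln2, the second talin, had 61 to 88 reads per library and stood at 0.000805 ± 0.000192 of Tln1 per kilobase in WT. Fermt3, kindlin-3, the kindlin of blood cells, was at 553, 515 and 436 CPM in WT and at 450, 483 and 522 CPM in AEG-1 KO (adjusted p = 0.80 in edgeR). Pxn, paxillin, was at 230, 212 and 178 CPM in WT and at 183, 192 and 216 CPM in AEG-1 KO (adjusted p = 0.732 in edgeR). For both, the groups overlapped.

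Fermt3, Pxn and Selplg shared a pattern between libraries: WT replicate 1 and AEG-1 KO replicate 3 were high, and WT replicate 3 and AEG-1 KO replicate 1 were low. Transcripts of Fermt3 and Pxn are rich in GC, at 57.5% and 57.7%, in members that ranged from 40.1% to 57.7% at 20 CPM or more, while Selplg is at 49.8%. Across these 19 members the log2 difference of WT replicate 3 from WT replicate 1 had a Pearson's r of -0.74 with GC content, and that of AEG-1 KO replicate 3 from AEG-1 KO replicate 1 had an r of 0.29, a description over genes that share their libraries. After removal of a smooth length and GC trend, the SD of the 3 WT libraries on the log2 scale fell from 0.18 to 0.06 for Fermt3, from 0.19 to 0.07 for Pxn and from 0.13 to 0.03 for Tln1. That of Selplg was 0.17 before and 0.18 after. The SD of the 3 AEG-1 KO libraries went from 0.11 to 0.04 for Fermt3 and from 0.12 to 0.06 for Pxn, but rose from 0.02 to 0.07 for Tln1 and was 0.13 before and 0.14 after for Selplg. With the trend removed, 8 members were called higher and 7 lower, in place of 5 and 3, while calls over all genes went from 1023 to 2106 (13.1% of those tested); the 7 further members were Itga4, Itgb7 and Icam2, higher, and Itgb2, Tln1, Itgam and Itga9, lower.

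**Figure D4:**
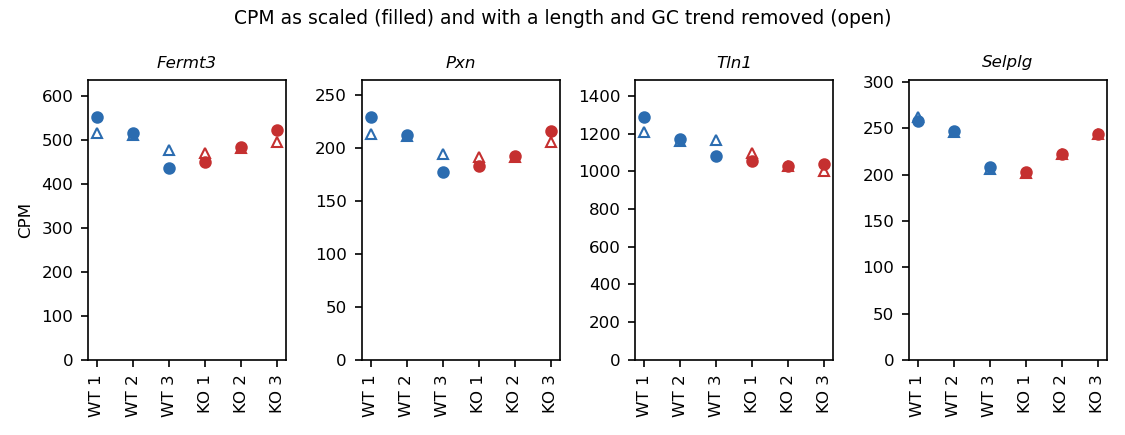
CPM (vertical axis, from 0) of 4 adhesion genes in each library, as scaled (filled circles) and after removal of a smooth length and GC trend (open triangles); WT libraries are blue and AEG-1 KO libraries, marked KO, red. The spread of WT values narrows for Fermt3, Pxn and Tln1, and for Selplg it stays at an SD near 0.17 on the log2 scale.

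Ilk, integrin-linked kinase, a scaffold of focal adhesions, was listed at 1, 1 and 1 reads in WT and at 3, 1 and 7 reads in AEG-1 KO and was not tested. Of its 2744 exon bases 89.7% lie in exons of Rrp8 or Taf10 on the opposite strand, and the table gave those genes 765 to 1024 and 822 to 1157 reads per library. Gm6263 on chromosome 13, which shares a near-identical stretch with Ilk, had 1140 to 1657 reads per library and a log2 difference of -0.02 ± 0.05 SE (adjusted p = 0.903 in edgeR). The part of the overlap and of the copy in the count of Ilk was not tested, and nothing about its transcript level can be read from the table. With Itga2, Itga3, Itga7 and Itgb6 it made up the 5 members that did not pass the filter.

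Genes around the integrins were counted from 4 lists, also chosen with earlier results of these data known. For comparison, 6.35% of all genes tested were called, and 9.32% of those with a mean of at least 20 CPM. In the list of integrin activation and signalling, 26 of 27 genes were tested, 2 rose and 4 fell, with a median log2 fold change of 0.00. Among the falls were Lyn, a Src-family kinase that signals from leukocyte integrins, Apbb1ip, which encodes the talin recruiter RIAM and fell from 479 ± 2.64 to 390 ± 17 CPM (adjusted p = 0.00432 in edgeR), and Vav1, a Rac exchange factor (adjusted p = 0.0107 in edgeR). The rises were Vav3, a relative of Vav1, which went from 54.5 ± 2.23 to 67.8 ± 1.78 CPM (adjusted p = 0.00615 in edgeR), and Cyth1. In the list of focal adhesion and podosome linkers, 22 of 24 were tested, 1 rose and 1 fell, with a median of 0.05. The log2 fold change was above 0 in 17 of these 22 and below 0 in 5. Flna, filamin A, an actin crosslinker that binds beta chain tails, fell from 1496 ± 38.6 to 1229.8 ± 46.1 CPM (adjusted p = 0.00535 in edgeR), and Lpxn, leupaxin, a paxillin relative of blood cells, rose by a log2 fold change of 0.18 (adjusted p = 0.0377 in edgeR).

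Matrix and soluble ligands of integrins were the list with the largest changes. Of 26 genes 18 were tested, 6 rose and 1 fell, with a median log2 fold change of 0.60 beside 0.01 for all genes tested. That median rests largely on scarce genes, as 13 of the 26 had a mean under 1 CPM. Lama4, Lamb1 and Edil3, among these, had log2 fold changes of 1.39, 1.20 and 0.91 without a call. The more abundant Mfge8, Lamc1 and Tgfb1 had 0.03, 0.14 and 0.03, also without a call. Thbs1, thrombospondin 1, rose from 228 ± 10.8 to 535 ± 25.6 CPM (adjusted p = 3.67e-06 in edgeR). Spp1, osteopontin, a ligand of Itgav dimers and of Itga9, rose from 581 ± 11.2 to 700 ± 19 CPM (adjusted p = 0.00453 in edgeR). Tnc, tenascin C, and the matricellular gene Ccn2 rose by log2 fold changes of 1.19 and 1.13 at means under 6 CPM (adjusted p = 0.00356 and 0.00833 in edgeR), and Ccn1 and Fn1 were the other rises. The fall was C3, the source of the complement fragment bound by CR3, from 849 ± 16.6 to 745 ± 34.8 CPM (adjusted p = 0.0395 in edgeR). The stromal markers given above moved with these genes, and Fn1 is also in the monocyte list; their part was not tested. Of 25 other adhesion molecules 19 were tested: Alcam rose from 63.8 ± 1.52 to 80.9 ± 2.85 CPM (adjusted p = 0.00293 in edgeR), the sialomucin Spn fell from 70 ± 1.21 to 56.1 ± 3.38 CPM (adjusted p = 0.00814 in edgeR) and the tetraspanin Cd63 fell by 0.26 on the log2 scale (adjusted p = 0.0474 in edgeR), with a median of 0.05 over the list.

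**Figure D5:**
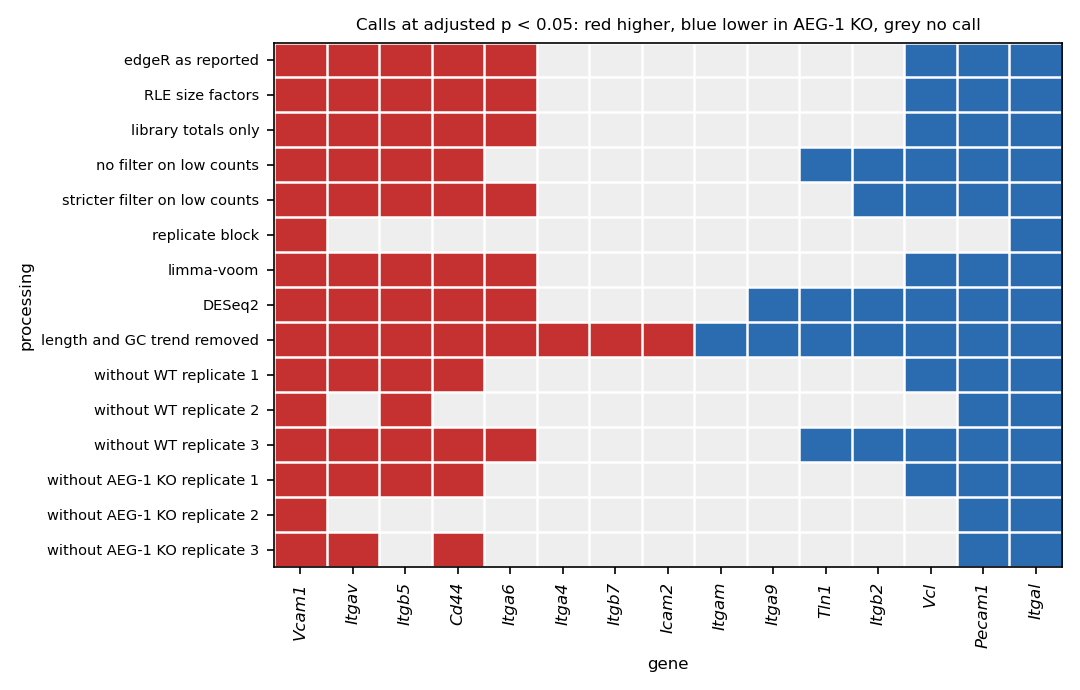
Calls at an adjusted p under 0.05 for the 15 members called in at least 1 fit (horizontal axis) under the reported fit and each of the 14 alternatives (vertical axis); red is higher and blue lower in AEG-1 KO. Vcam1 and Itgal are called in every row, and Pecam1 in all but the replicate block.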

How the data were processed

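Total RNA of 6 samples was turned into TruSeq libraries and sequenced on an Illumina machine, per the labels' protocols. The authors deposited raw read counts per Ensembl gene, as whole numbers in 1 column for each library, per the file headers. Tools named in the submitters' processing notes were edgeR 3.18.1, featureCounts 1.4.6-p4, Subread, cutadapt 1.9 and FastQC 0.11.2, with builds GRCm38 and mm10. Annotation release, strand setting and handling of multiply matching reads: not given in the sources used here.

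GENCODE mouse release M21 (GRCm38) gave symbols, positions and exon lengths for 46488 of the 46983 identifiers and all 231 listed genes. The main test was the quasi-likelihood test of edgeR 4.0.16 in R 4.3.3, after filterByExpr (minimum count 10) and TMM scaling, with genotype as the only term and Benjamini-Hochberg adjustment over 16115 genes. An SE is the size of the log2 fold change divided by the square root of its F statistic. CPM per kilobase uses the union of annotated exons. Near-identical copies shared at least 95% identity over at least 100 nucleotides (BLAST+). The fit was tested on simulated data with changes larger than those of every called member but Vcam1. That test does not cover changes of the size found in the other called members. Counts of libraries of 1 genotype differed by 5.21 to 17.8 chi-square per degree of freedom, more than counting noise. Each was kept as a replicate, but that check cannot tell separate animals or cultures from technical replicates.

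Alternatives were RLE factors, library totals, no filter, a stricter filter (1 CPM in 3 libraries), DESeq2 1.42.0, limma-voom 3.58.1, a replicate block, a smooth length and GC trend (mgcv 1.9.3), and each library left out in turn. Named were all members and, of each further list, up to 4 called genes with the smallest p; other names were chosen after their values were seen. Some items of these lists are not reported here. Members and lists were chosen with earlier results of these data known.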

Additional observations from a re-analysis of the deposited data

How the results depend on the processing

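Genes called numbered 1023 in all. The count was 227 with the replicate block and 2106 with the length and GC trend removed, and 380 to 1092 over the fits without 1 library. Members called higher numbered 5 in the reported fit, 1 with the replicate block, 4 with no filter, 8 with the length and GC trend removed and 1 to 5 without 1 library. Members called lower numbered 3 in the reported fit, 1 with the replicate block, 5 with no filter, 6 by DESeq2, 7 with the length and GC trend removed and 2 to 5 without 1 library. Of the fits without 1 library, those without WT replicate 2 or AEG-1 KO replicate 2 made the fewest calls, 441 and 380 genes, with 2 and 1 members higher; without AEG-1 KO replicates 1 and 3 they made 667 and 606. Fewer libraries were used in these fits; the cause of the other differences was not tested. The same-numbered WT and AEG-1 KO libraries deviated in opposite directions (correlations of -0.27, -0.17 and -0.25 for numbers 1, 2 and 3), so the numbers were not taken to pair them; under the replicate block only Vcam1 and Itgal among the members were called.

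Of the values of single genes, 413 kept their direction and side of the threshold, 21 lost a call, 15 gained a call and 15 changed sign, none of the last with a call. The 413 include Mtdh and genes called in neither fit, so they do not measure how stable the calls were. All 21 losses fell on called members, namely Itga6, Itgav, Itgb5, Cd44, Vcl and Pecam1. For Icam1 the log2 fold change was -0.0074 with RLE factors, -0.013 with no filter, -0.0043 with the stricter filter, -0.0074 by DESeq2, -0.0050 with the trend removed and -0.031 to 0.025 without 1 library. That of Itgae was -0.013 by limma-voom and -0.37 to 0.36 without 1 library. Without 1 library Fermt3 ran from -0.14 to 0.016, Itgb4 from -0.26 to 0.64 and Pxn from -0.17 to 0.0026. Itgb4 and Itga11, at 6 to 23 reads per library, give no precise fold change at this depth. The same holds for Itgad, Itgae and Itgb8, at 12 to 34 reads per library, with an SE of 0.25, 0.33 and 0.27. Itga7, at 7 to 18 reads, was not tested.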
